A study of Mus musculus with 6 samples.

Results

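The genes described here are 10 cytokines, receptors and 1 enzyme of inflammatory signalling in fibroblasts: the IL-6 family ligands Il6, Lif and Il11 with the receptor chains Il6st and Osmr, Il33 with its receptor Il1rl1, the IL-1 receptor Il1r1, the macrophage growth factor Csf1 and the prostaglandin synthase Ptgs2. They were taken by symbol from a table of 55401 mouse genes, and all 10 were found once each. RNA was sequenced from CAFs (cancer-associated fibroblasts), the fibroblasts that are found activated around a tumour. They had been isolated from rectal tumours grown from injected mouse tumour organoids and were kept on fibronectin-coated plastic in medium with serum. A first group of 3 libraries came from tumours of Thbs2KO hosts, a knockout of Thbs2, the gene of the secreted matrix protein thrombospondin-2, and a second group of 3 libraries from tumours of WT hosts. The genotype named is that of the host mouse. The labels give no strain, age or sex of the hosts and no genotype of the organoids, and whether each library of a group stands for its own mouse or culture is not stated there. All p-values below are therefore about the spread among these libraries, which may be technical.

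IL-6 family cytokines bind a private receptor chain and then gp130, the product of Il6st, which activates JAK kinases and the transcription factor STAT3. IL-33 is stored in the nucleus and, once released, signals through ST2, the product of Il1rl1, and IL-1 signals through the related receptor encoded by Il1r1. Fibroblasts in tumours are known as a source of IL-6, LIF and IL-11, of CSF-1, on which macrophages depend, and of prostaglandin E2, made through cyclooxygenase-2, the product of Ptgs2.

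The libraries held 20289615, 19649066 and 20860335 estimated reads for Thbs2KO replicates 1 to 3, against 23986332, 23061568 and 24417464 for WT replicates 1 to 3. Thbs2 itself was at 15.8%, 12.5% and 12.1% of the WT mean in the Thbs2KO libraries. Replicates 1 and 2 of Thbs2KO resembled each other most, with a chi-square of 3.719 per degree of freedom where every other pair gave 14.57 to 113.1. WT replicate 1 and Thbs2KO replicate 3 stood apart from the others on the second principal component, so results are also given without them. That choice keeps the most alike pairs, Thbs2KO replicates 1 and 2 (3.719) and WT replicates 2 and 3 (14.57). The spread within groups is therefore smaller by selection, and edgeR then called 11.2% of all genes against 1.09% (adjusted p below 0.05). Fibroblast markers were abundant in all 6 libraries, and the list of 10 summed to 33390 to 52573 CPM (reads scaled to library size with TMM factors) in Thbs2KO and 33832 to 38886 CPM in WT. Of its 10 markers 8 had positive log2 fold changes, the median being 0.33, and none was called. Col1a1, a collagen I chain, was at 11335 to 12055 CPM in Thbs2KO and 12144 to 14757 CPM in WT, while the receptor gene Pdgfra was at 947 to 1527 CPM in Thbs2KO and 388 to 751 CPM in WT (log2 fold change 1.04, edgeR adjusted p = 0.172). Of 8 mast cell markers 3 were at 0 in all libraries, and the list summed to 0.636 to 1.99 CPM in Thbs2KO and 0.57 to 1.13 CPM in WT. The 12 macrophage markers summed to 8.27 to 14.9 CPM in Thbs2KO and 9.38 to 20.7 CPM in WT, with no marker at 0 throughout and the leukocyte marker Ptprc at 0.168 CPM or less. Of 9 T and innate lymphoid markers 5 were at 0 in all libraries, among them Cd3e, Cd4 and Cd8a, and the sum of 29.0 to 60.1 CPM in Thbs2KO and 37.5 to 46.4 CPM in WT was mostly Rora. The 7 endothelial markers summed to 32.2 to 50.5 CPM in Thbs2KO and 11.8 to 32.0 CPM in WT. Among them Kdr and Tek held most reads, Cldn5 was at 0 and Pecam1 reached 0.426 CPM.

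All 10 genes passed the filter on low counts and were tested. None was called by edgeR (Benjamini-Hochberg adjusted p below 0.05 over 13590 genes, which called 1.09% of all tested genes, 0.552% higher and 0.537% lower), none by limma-voom (1.08% of all genes), and DESeq2 called Il11, Csf1 and Ptgs2 (4.37% of all genes). With p below 0.05 before adjustment in edgeR, 5 of the 10 were lower in Thbs2KO, where 7.56% of all tested genes were, and 0 were higher, where 5.72% of all genes were. Only Il11, Csf1 and Ptgs2 kept a p below 0.05, a count of 3, without Thbs2KO replicate 1, without Thbs2KO replicate 3 or without WT replicate 3. Without WT replicate 2 the count was 4, these genes and Il1rl1 (edgeR unadjusted p = 0.00772). Il6 (edgeR unadjusted p = 0.124) and Lif (edgeR unadjusted p = 0.0883) were then not below 0.05. The 5 genes of the full set, Il6, Lif, Il11, Csf1 and Ptgs2, were also those that had every Thbs2KO library below every WT library, which held for 10.3% of all tested genes, while 0 of the 10 had every Thbs2KO library above, as 9.37% of all genes did (19.7% in either direction). Of the other 5, Il6st and Il33 had positive and Osmr, Il1rl1 and Il1r1 negative log2 fold changes, and the groups overlapped in each. Negative log2 fold changes were thus found in 8 of the 10 members and in 50.9% of all tested genes. The median log2 fold change of the 10 was -0.47, against -0.0038 over all tested genes.

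**Figure D1:**
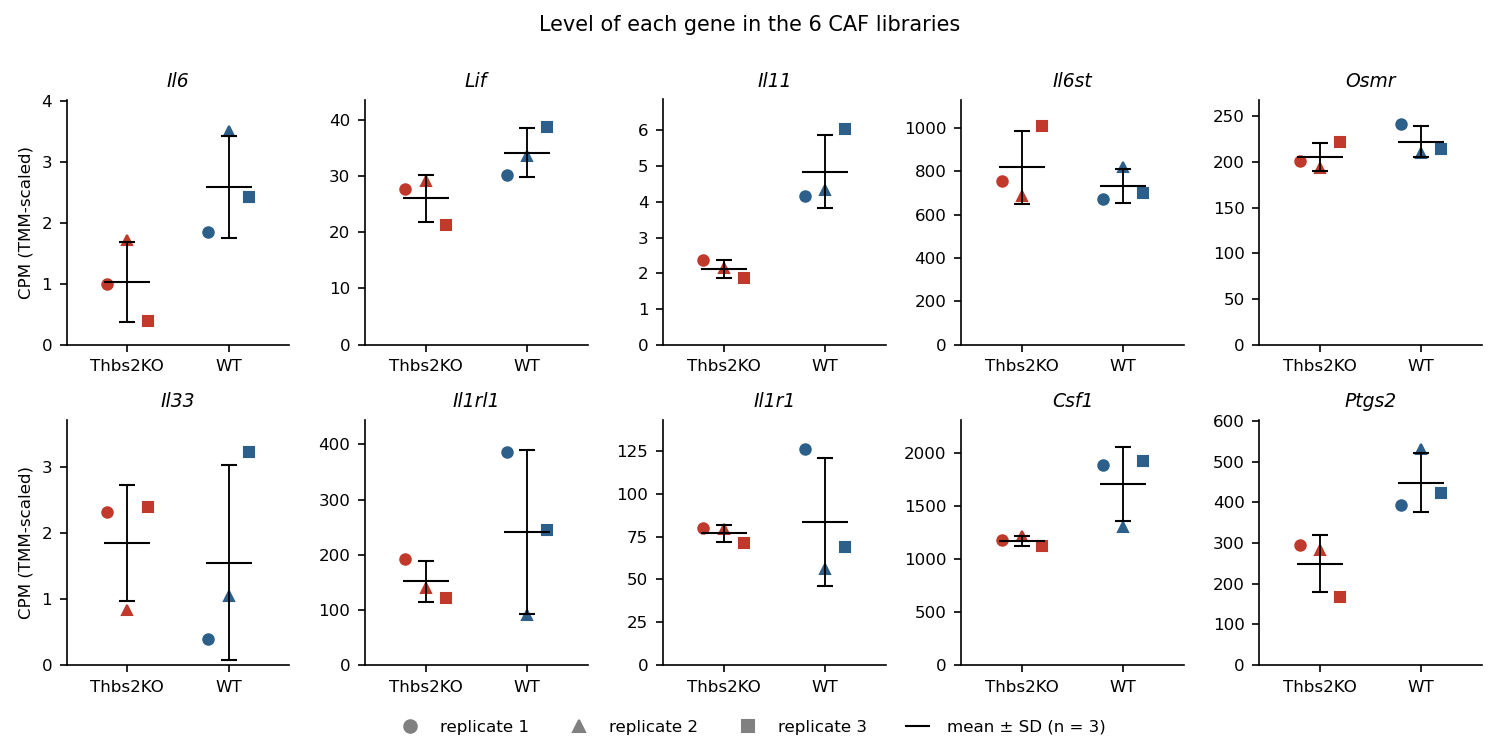
TMM-scaled CPM of each gene in the 3 Thbs2KO libraries (red, left) and the 3 WT libraries (blue, right), with marker shapes for replicates and bars for mean ± SD. Il6, Lif, Il11, Csf1 and Ptgs2 show no overlap between the genotypes, and Il33, Il1rl1 and Il1r1 spread most within WT.

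Il11 (ENSMUSG00000004371.15, mm10 chromosome 7, 4772373 to 4782859, minus strand), a gp130 cytokine known for its role in fibroblast activation and epithelial repair, had the smallest p of the 10. It measured 2.36, 2.15 and 1.86 CPM in Thbs2KO replicates 1, 2 and 3, and 4.18, 4.34 and 6.04 CPM in WT replicates 1, 2 and 3. The 2 ranges are far apart and the Thbs2KO libraries lie close together. The means were 2.13 ± 0.254 CPM in Thbs2KO and 4.85 ± 1.03 CPM in WT (SD, n = 3 each), on 132 and 340 reads in all, and the log2 fold change was -1.19 with a standard error of 0.223 and a 95% confidence interval of -1.72 to -0.66. Its edgeR adjusted p was 0.0706 (0.0553 to 0.244 with single libraries left out), and 0.00219 in DESeq2. Without both WT replicate 1 and Thbs2KO replicate 3 it was called lower by edgeR, with a log2 fold change of -1.20 and an adjusted p of 0.0257, where 11.2% of all genes were called.

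Il6 (ENSMUSG00000025746.11, chromosome 5, 30013114 to 30019981, plus strand), the cytokine for which the family is named, was among the least abundant of the 10. It measured 0.993, 1.71 and 0.391 CPM in Thbs2KO replicates 1, 2 and 3, which are 21, 35 and 8 reads, and 1.85, 3.51 and 2.43 CPM in the WT libraries, which are 43, 80 and 58 reads. Thbs2KO replicate 2 came close to WT replicate 1, and Thbs2KO replicate 3 was lowest. The log2 fold change was -1.33 (SE 0.515, 95% confidence interval -2.56 to -0.09, edgeR adjusted p = 0.338). With single libraries left out it ran from -1.89 to -0.94.

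Lif (ENSMUSG00000034394.14, chromosome 11, 4257557 to 4272514, plus strand) encodes leukemia inhibitory factor, which signals through gp130 and Lifr. It was at 27.6, 29.2 and 21.3 CPM in Thbs2KO replicates 1, 2 and 3, and at 30.1, 33.5 and 38.7 CPM in WT replicates 1, 2 and 3. The highest Thbs2KO library and the lowest WT library nearly met. The difference was the smallest of the 5 whose groups did not overlap, at a log2 fold change of -0.39 (SE 0.151, 95% confidence interval -0.75 to -0.03, edgeR adjusted p = 0.336).

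Csf1 (ENSMUSG00000014599.10, chromosome 3, 107741048 to 107760469, minus strand), the growth factor of macrophages, was the most abundant of the 10. It measured 1173, 1217 and 1119 CPM in Thbs2KO replicates 1, 2 and 3, and 1888, 1302 and 1923 CPM in WT replicates 1, 2 and 3. The Thbs2KO libraries agreed closely and WT replicate 2 lay nearer to them than to the other WT libraries. The means were 1169.8 ± 49.1 CPM in Thbs2KO and 1704 ± 348 CPM in WT (SD, n = 3 each), with a log2 fold change of -0.54 (SE 0.159, 95% confidence interval -0.92 to -0.16). Csf1 had an adjusted p of 0.204 in edgeR and 0.0475 in DESeq2. With single libraries left out, the log2 fold change ran from -0.69 without WT replicate 2 (edgeR adjusted p = 0.0763) to -0.45 without WT replicate 3 (edgeR adjusted p = 0.534). It was -0.43 without both WT replicate 1 and Thbs2KO replicate 3 (edgeR adjusted p = 0.342).

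Il33 (ENSMUSG00000024810.16, chromosome 19, 29925114 to 29960718, plus strand), the nuclear alarmin, did not follow the genotype. It had 49, 17 and 49 reads in Thbs2KO replicates 1, 2 and 3 (2.32, 0.832 and 2.40 CPM) and 9, 24 and 77 reads in WT replicates 1, 2 and 3 (0.387, 1.05 and 3.23 CPM). Both the lowest and the highest library were WT. Its log2 fold change of 0.25 had a 95% confidence interval of -1.56 to 2.05, and it turned to -0.21 without WT replicate 1. With this spread between libraries neither direction was detectable (edgeR adjusted p = 0.94).

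Ptgs2 (ENSMUSG00000032487.8, chromosome 1, 150100031 to 150108227, plus strand) encodes cyclooxygenase-2, the inducible enzyme that starts prostaglandin synthesis. It was at 294, 284 and 168 CPM in Thbs2KO replicates 1, 2 and 3, and at 393, 529.9 and 422 CPM in WT replicates 1, 2 and 3. Every Thbs2KO library was below every WT library, and Thbs2KO replicate 3 was lowest. The means were 249 ± 70.0 CPM in Thbs2KO and 448 ± 72.1 CPM in WT (SD, n = 3 each), and the log2 fold change was -0.85 (SE 0.231, 95% confidence interval -1.40 to -0.30). Its adjusted p was 0.172 in edgeR (0.133 to 0.396 with single libraries left out) and 0.0134 in DESeq2. Without both WT replicate 1 and Thbs2KO replicate 3, edgeR called it lower, with a log2 fold change of -0.72 and an adjusted p of 0.0273. In that setting 11.2% of all genes were called.

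An exact permutation test of 3 against 3 libraries gives any gene without overlap a two-sided p of 0.1, the smallest it allows, so it adds nothing for these 5 genes. Epithelial and tumour organoid markers lay on the same side as these 5 genes, but edgeR called 0 of the 7 tested. Of these 7, 2 had every Thbs2KO library below every WT library (10.3% of all tested genes did), and the others overlapped. All 7 of the 10 that reached testable counts had negative log2 fold changes, as did 50.9% of all tested genes. The list summed to 12.5 to 18.0 CPM in Thbs2KO and 24.6 to 33.9 CPM in WT. Krt19, an epithelial keratin, was at 3.57 to 6.21 CPM in Thbs2KO and 9.86 to 14.6 CPM in WT, while the defining marker Epcam was at 0.294 to 1.17 CPM in Thbs2KO and 0.646 to 1.80 CPM in WT, and no marker of the list was at 0 in all libraries. The pericyte and smooth muscle list was mixed, with 6 of its 9 tested markers negative and 3 positive in log2 fold change. Unadjusted edgeR p was below 0.05 for 4, all lower, where 7.56% of all tested genes were. Of the 9, 1 was lower without overlap (10.3% of all tested genes), and edgeR called 0. Cspg4, Des and Abcc9 had log2 fold changes of 0.36, 0.05 and 0.02, with overlap between the groups. Cnn1, the gene of calponin, was at 91.8 to 122 CPM in Thbs2KO and 151 to 421 CPM in WT (log2 fold change -1.63, edgeR adjusted p = 0.123). Actg2, Myh11 and Lmod1, which encode smooth muscle contractile proteins, had log2 fold changes of -1.70, -1.99 and -1.12, with overlap between the groups. The list summed to 429 to 568 CPM in Thbs2KO and 407 to 1415 CPM in WT, with none of its 10 at 0 throughout, and its pericyte marker Rgs5 was at 0.615 CPM at most in Thbs2KO and 0.613 CPM at most in WT. Fibroblast markers, as given above, lay mostly on the other side by the sign of the log2 fold change. Only Pdgfra was higher and only Col1a1 lower without overlap, and the others overlapped. Dcn, Lum, Col3a1 and Postn were each highest in Thbs2KO replicate 3. Dcn, for example, was at 1004 CPM there, against 352 and 275 CPM in Thbs2KO replicates 1 and 2. The part of these marker lists in the differences was not tested, and in such bulk samples fewer cells of a type and less RNA per cell cannot be told apart.

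**Figure D2:**
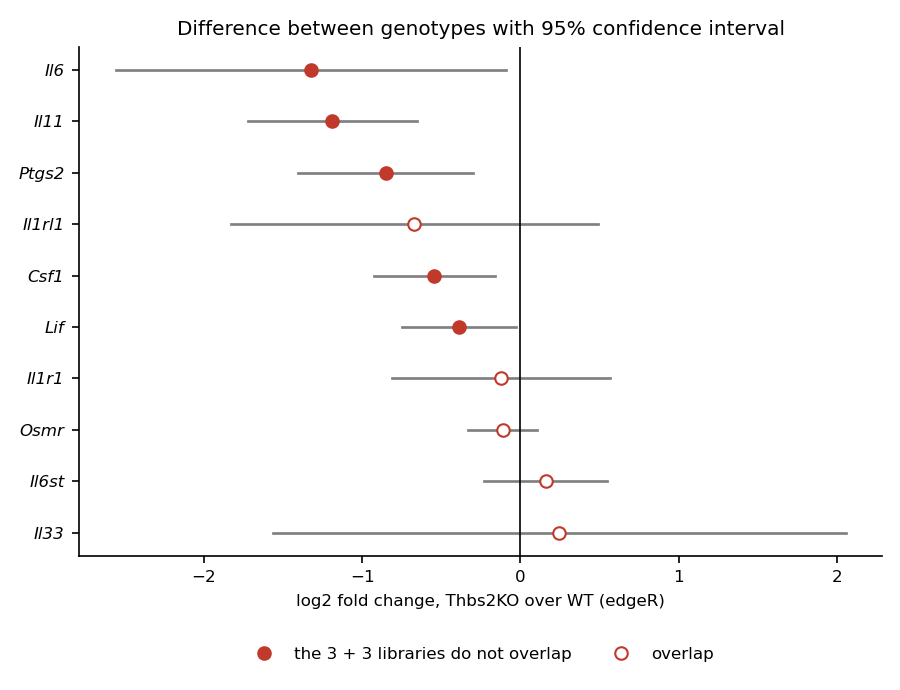
Log2 fold change of Thbs2KO over WT from edgeR (points) with its 95% confidence interval (lines), for the 10 genes from the most negative at the top. Filled points mark genes whose libraries do not overlap between genotypes; their 5 intervals lie below 0 before adjustment, and none of the 10 passed the adjusted threshold.

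The promoter sequences of the 5 genes whose groups did not overlap are shown because they are the members that lay lower together. RefSeq (GRCm38.p6) gives 14 promoters for the 10 genes, each 250 bases before to 50 after a start site, and all 10 genes were matched. They were searched on both strands for 7 motifs: AP-1 (TGANTCA), the cAMP response element half-site (TGACG), STAT (TTCNNNGAA), C/EBP (TTGNNNAAT), NF-kB (GGG, any 2 bases, then TTTCC), TEAD (GGAATG) and the TATA box (TATAAA), with N for any base. Capitals mark every match. Positions are counted from the start site, which is 1, and the base before it is -1. The C/EBP matches in Il6 overlap each other, and Il11 is shown at the second of its 2 start sites in that table, since the first held no match.
Il6 (chr5:30012864-30013163, plus strand): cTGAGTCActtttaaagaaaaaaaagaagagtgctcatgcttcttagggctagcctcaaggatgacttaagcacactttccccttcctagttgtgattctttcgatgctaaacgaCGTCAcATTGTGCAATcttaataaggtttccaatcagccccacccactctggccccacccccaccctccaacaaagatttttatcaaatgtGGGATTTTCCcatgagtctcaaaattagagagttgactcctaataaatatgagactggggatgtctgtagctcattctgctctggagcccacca
Lif (chr11:4257318-4257617, plus strand): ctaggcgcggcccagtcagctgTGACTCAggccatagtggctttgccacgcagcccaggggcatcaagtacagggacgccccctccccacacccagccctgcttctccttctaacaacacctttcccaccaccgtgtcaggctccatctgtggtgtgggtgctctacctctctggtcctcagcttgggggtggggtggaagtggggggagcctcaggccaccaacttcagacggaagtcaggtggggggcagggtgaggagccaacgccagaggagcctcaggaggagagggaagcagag
Il11 (chr7:4778092-4778391, minus strand): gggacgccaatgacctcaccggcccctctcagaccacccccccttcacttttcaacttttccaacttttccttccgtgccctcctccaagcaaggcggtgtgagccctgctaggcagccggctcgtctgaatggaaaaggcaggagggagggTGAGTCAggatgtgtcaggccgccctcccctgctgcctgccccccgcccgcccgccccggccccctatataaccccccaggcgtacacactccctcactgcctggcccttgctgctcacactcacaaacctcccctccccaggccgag
Csf1 (chr3:107760420-107760719, minus strand): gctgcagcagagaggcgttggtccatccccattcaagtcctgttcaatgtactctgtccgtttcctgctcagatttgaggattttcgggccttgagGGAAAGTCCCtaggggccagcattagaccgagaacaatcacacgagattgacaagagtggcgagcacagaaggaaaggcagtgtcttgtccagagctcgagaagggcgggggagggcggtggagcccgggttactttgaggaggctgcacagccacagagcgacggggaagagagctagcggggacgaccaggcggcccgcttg
Ptgs2 (chr1:150099781-150100080, plus strand): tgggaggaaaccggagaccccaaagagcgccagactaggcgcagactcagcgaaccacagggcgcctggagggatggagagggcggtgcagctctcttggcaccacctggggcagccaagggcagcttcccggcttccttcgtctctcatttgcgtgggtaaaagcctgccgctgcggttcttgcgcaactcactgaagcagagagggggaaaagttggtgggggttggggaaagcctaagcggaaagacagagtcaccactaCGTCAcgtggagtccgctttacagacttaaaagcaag

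An AP-1 match stood in the promoters of all 3 IL-6 family ligands, beginning at position -249 from the start site in Il6, -228 in Lif and -98 in Il11, and in that of Osmr at position 4. Thus 4 of the 14 promoters held it, against 7.81% of 32851 promoters of the same length. NF-kB matches stood at -44 in Il6 and -154 in Csf1, 2 of the 14 promoters, against 1.63% of all. The cAMP response element half-site occurred in 4 of the 14 (20.8% of all), at 14 in Ptgs2 and -135 in Il6 among the 5 shown. C/EBP matches were in 3 of the 14 (11.4% of all), those of Il6, Il1r1 and Il33. The STAT motif was in 0 of the 14 (8.3% of all), TEAD in 4 (14.7% of all) and the TATA box in 2 (13.6% of all). These are matches of letters, and nothing was measured of binding.

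Neither gp130 nor its partner for oncostatin M separated the genotypes. Il6st (ENSMUSG00000021756.12, chromosome 13, 112464070 to 112510086, plus strand), the shared signal transducer gp130, was at 756, 686 and 1010 CPM in Thbs2KO replicates 1, 2 and 3, and at 674, 821 and 702 CPM in the WT libraries. The groups overlapped, and Thbs2KO replicate 3 was highest. The log2 fold change was 0.16 (SE 0.163, 95% confidence interval -0.23 to 0.55, edgeR adjusted p = 0.767), and it was -0.021 without Thbs2KO replicate 3. Osmr (ENSMUSG00000022146.12, chromosome 15, 6813577 to 6874969, minus strand), which pairs with gp130 to bind oncostatin M, varied least between libraries, at 201, 193 and 222 CPM in Thbs2KO and 242, 210.2 and 215 CPM in WT. The 95% confidence interval of its log2 fold change ran from -0.33 to 0.10, around -0.11 (edgeR adjusted p = 0.695).

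Il1rl1 (ENSMUSG00000026069.15, chromosome 1, 40429570 to 40465415, plus strand) and Il1r1 (ENSMUSG00000026072.12, chromosome 1, 40225080 to 40317257, plus strand) both lie in the IL-1 receptor cluster, 112312 bases apart. Il1rl1 measured 192, 140.4 and 122 CPM in Thbs2KO replicates 1, 2 and 3, and 387, 90.1 and 246 CPM in WT replicates 1, 2 and 3. Il1r1 measured 80.0, 79.4 and 71.3 CPM in the Thbs2KO libraries and 126, 56.3 and 68.7 CPM in the WT libraries. Both were highest in WT replicate 1 and lowest in WT replicate 2, with the Thbs2KO libraries between these. The log2 fold changes were -0.67 for Il1rl1 (95% confidence interval -1.83 to 0.49, edgeR adjusted p = 0.652) and -0.12 for Il1r1 (95% confidence interval -0.81 to 0.57, edgeR adjusted p = 0.917). Without WT replicate 1 they were -0.15 for Il1rl1 and 0.30 for Il1r1, so the sign for Il1r1 rests on that library. Without WT replicate 2 the log2 fold change of Il1rl1 was -1.05 (edgeR adjusted p = 0.21). The read table is by gene, so the membrane and the soluble form of ST2, which Il1rl1 makes from different transcripts, were not separated.

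**Figure D3:**
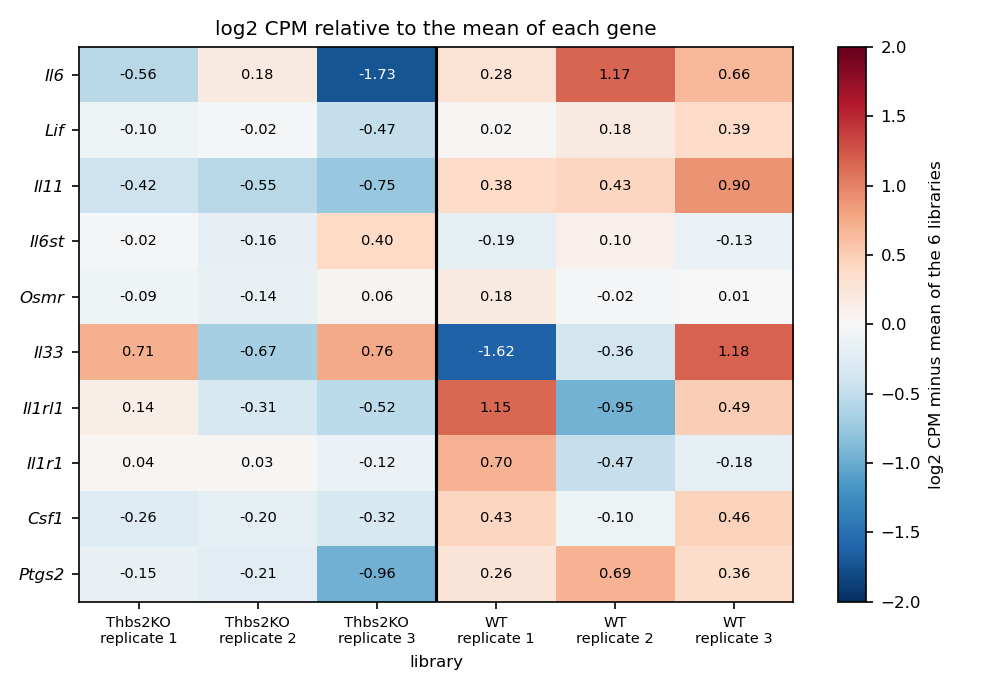
Log2 CPM of each gene in each library minus the mean of that gene over the 6 libraries, with Thbs2KO to the left of the line and WT to the right. Lif, Il11, Csf1 and Ptgs2 are negative in all 3 Thbs2KO libraries, these 4 and Il6 are lowest in Thbs2KO replicate 3, and Il1rl1 and Il1r1 change sign between WT replicates 1 and 2.

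To compare levels between genes, CPM was divided by the exonic length of each gene in GENCODE M21 (GRCm38, the build called mm10), and the values that follow are such levels over the 6 libraries. Csf1 stood first, at 212 to 364 CPM per kb, above every library of every other member. Ptgs2 at 36.7 to 115.7 and Il6st at 60.7 to 91.0 CPM per kb followed and overlapped each other. Il1rl1 (13.1 to 56.1), Osmr (16.0 to 19.9) and Il1r1 (8.84 to 19.8 CPM per kb) overlapped in turn. Lif, at 4.90 to 8.90 CPM per kb, was the most abundant of the 3 IL-6 family ligands and did not overlap Il11 (0.893 to 2.90 CPM per kb). Il11 overlapped Il6 (0.161 to 1.44 CPM per kb), and Il6 overlapped Il33 (0.134 to 1.12 CPM per kb). The receptor chains Il6st and Osmr thus had more reads per kb than any of the ligands Il6, Lif and Il11 in these cultures.

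**Figure D4:**
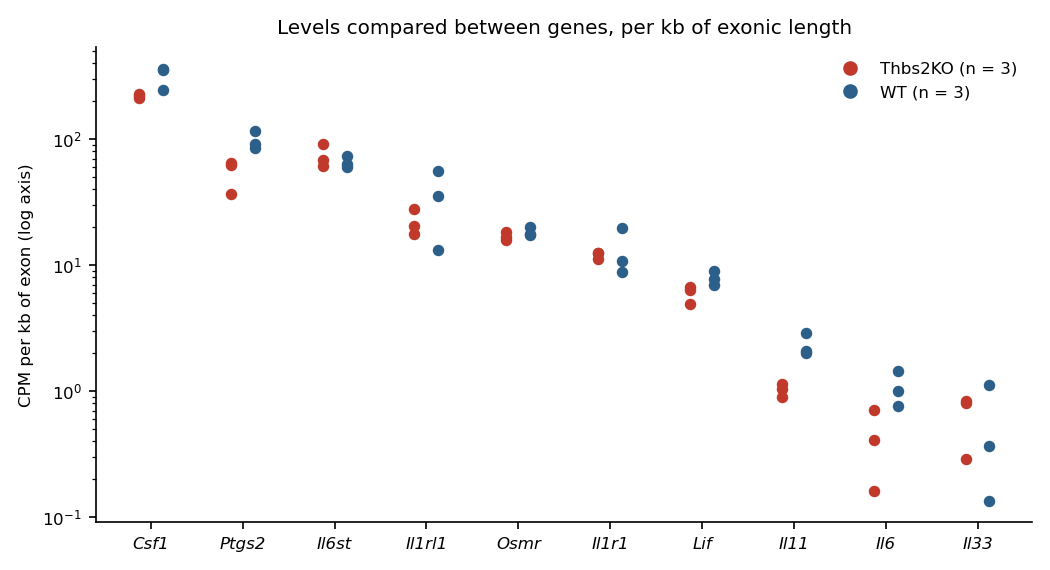
Level of each gene per kb of exonic length on a log axis, ordered from the highest mean, with Thbs2KO libraries (red) left of WT libraries (blue). Csf1 lies between 212 and 364 CPM per kb, and Il33 and Il6 at 1.44 or below.

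Of the genes most like a member over the 6 libraries, by the root mean square difference of centred log2 CPM among 10151 candidates, the closest to Il11 were Lmcd1 (0.126), Dubr (0.153) and Hs6st2 (0.156). Lmcd1, a LIM domain protein, fell with a log2 fold change of -1.07 (edgeR adjusted p = 0.0266), and the noncoding transcript Dubr fell with -1.14 (edgeR adjusted p = 0.00655). Both were picked for likeness to Il11 in these same libraries, so their direction follows from the selection and is no separate result. Leaving out single libraries gave Lmcd1 adjusted p values from 0.0152 to 0.132, and it lost its call without any one of the Thbs2KO replicates or WT replicate 2 or 3; Dubr lost its call without Thbs2KO replicate 2 (adjusted p = 0.0544). The closest to Il6 were Ptx3 (0.207), which encodes a secreted pattern recognition protein of the pentraxin family, Npnt (0.29) and Rgs16 (0.339). For Lif they were Ywhah (0.0283), Cd3eap (0.0467) and Asrgl1 (0.0508), and 1523 genes lay within 0.2 of Lif, so its pattern was a common one. Zfp235 (0.0829), Uck2 (0.0861) and Timp1 (0.103) were closest to Csf1, and 185 genes lay within 0.2. For Il33 even the closest, Itga4 (0.517), Spon1 (0.519) and Serpina3n (0.582), were distant.

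Other genes of the same pathways were taken from 8 lists, of which 77 genes were tested. In edgeR 1 of the 77 rose and 0 fell, with 6 above and 11 below WT at p below 0.05 before adjustment and a median log2 fold change of -0.017, while limma-voom called 1 and DESeq2 called 8. Over all tested genes 5.72% were above and 7.56% below WT at that p, the median was -0.0038, and DESeq2 called 4.37%. The gene that rose was Il6ra, the ligand-binding chain of the IL-6 receptor. Il6ra measured 30.1, 27.9 and 34.9 CPM in Thbs2KO replicates 1, 2 and 3, and 19.1, 15.7 and 16.6 CPM in WT replicates 1, 2 and 3. All Thbs2KO libraries were above all WT libraries, the opposite side from Il6. The means were 31.0 ± 3.54 CPM in Thbs2KO and 17.1 ± 1.78 CPM in WT (SD, n = 3 each), with a log2 fold change of 0.85 (SE 0.124, 95% confidence interval 0.56 to 1.15, edgeR adjusted p = 0.0353). The call was lost with any one library other than WT replicate 1 left out (adjusted p from 0.0607 to 0.169) and with Thbs2KO replicates 1 and 2 summed (adjusted p = 0.128), while the log2 fold change stayed between 0.76 and 0.94.

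Of 9 further IL-6 family ligands and partners 4 were tested and 0 were called by edgeR, while unadjusted p was below 0.05 for 1 higher and 2 lower. Clcf1 encodes a secreted cytokine that acts through the CNTF receptor. It was at 11.6 to 16.3 CPM in Thbs2KO and 19.8 to 27.9 CPM in WT, a log2 fold change of -0.71 (edgeR adjusted p = 0.145), and DESeq2 called it. Its libraries did not overlap between genotypes, and it lay on the same side as Il6, Lif and Il11. Ctf1, the gene of cardiotrophin-1, lay on the other side, also without overlap. It was at 2.25 to 3.28 CPM in Thbs2KO and 1.68 to 2.02 CPM in WT (log2 fold change 0.62, edgeR adjusted p = 0.305). Osm, Ctf2, Ebi3 and Il31 had 0 reads in all 6 libraries. In the receptor list of 7, with 5 tested, Cntfr and Il27ra had log2 fold changes of -1.21 and 0.74, and 1 gene was lower and Il6ra higher at an unadjusted p below 0.05. Lifr and Il11ra1, the receptor chains for LIF and IL-11, overlapped between genotypes, Lifr at 12.7 to 26.2 CPM in Thbs2KO and 11.3 to 22.2 CPM in WT, and Il11ra1 at 43.3 to 67.1 CPM in Thbs2KO and 36.3 to 58.2 CPM in WT. Without both WT replicate 1 and Thbs2KO replicate 3, Il11ra1 was called by edgeR, as were 11.2% of all genes. All remaining Thbs2KO libraries were then above the remaining WT libraries.

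**Figure D5:**
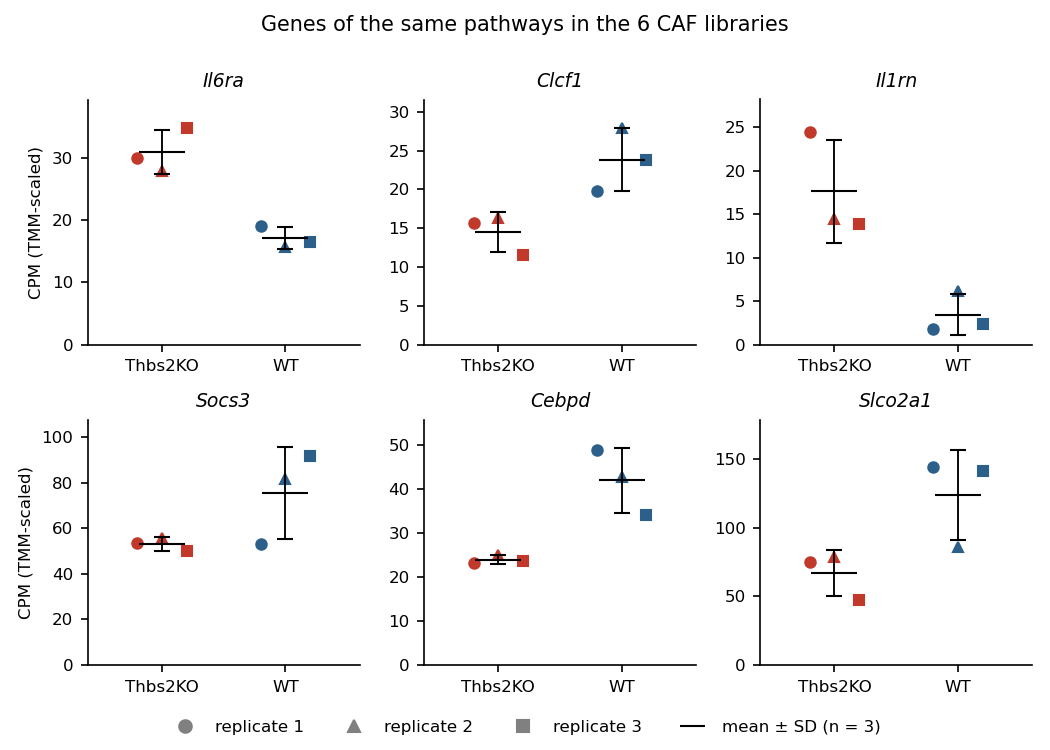
TMM-scaled CPM of Il6ra, Clcf1, Il1rn, Socs3, Cebpd and Slco2a1 in the 3 Thbs2KO libraries (red, left) and the 3 WT libraries (blue, right), with bars for mean ± SD. Il6ra and Il1rn lie higher in Thbs2KO, and Clcf1, Cebpd and Slco2a1 lower, without overlap, while Socs3 in WT replicate 1 lies among the Thbs2KO libraries.

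Downstream of gp130, edgeR called 0 of 14 JAK-STAT3 signalling genes (2 lower and 0 higher with unadjusted p below 0.05, and 0 called by DESeq2 or limma-voom). Stat3 was at 241 to 283 CPM in Thbs2KO and 275 to 293 CPM in WT. Cish, a feedback inhibitor of cytokine receptors, was at 1.81 to 1.96 CPM in Thbs2KO and 2.80 to 3.98 CPM in WT (log2 fold change -0.89), and Stat5a had a log2 fold change of 0.17. Socs3, the feedback inhibitor of gp130, was at 53.6, 55.8 and 49.8 CPM in Thbs2KO replicates 1, 2 and 3, and 53.0, 81.7 and 91.7 CPM in WT replicates 1, 2 and 3 (log2 fold change -0.51, edgeR adjusted p = 0.336). WT replicate 1 lay among the Thbs2KO libraries, and without it edgeR called Socs3 lower, with a log2 fold change of -0.71 and an adjusted p of 0.0229, while the other single libraries left out gave adjusted p values of 0.466 to 0.735. In a list of 20 STAT3 target genes 17 were tested, 14 had a negative log2 fold change, the median being -0.25 (50.9% of all tested genes were negative, with a median of -0.0038), and edgeR and limma-voom called 0 (3 lower and 0 higher by unadjusted p). Cebpd, a transcription factor of the acute phase response, was at 23.1 to 25.0 CPM in Thbs2KO and 34.1 to 48.9 CPM in WT, a log2 fold change of -0.81 (edgeR adjusted p = 0.059), and edgeR called it lower without WT replicate 1 (adjusted p = 0.0467) or WT replicate 3 (adjusted p = 0.0453), while the other single libraries left out gave adjusted p values of 0.131 to 0.248. DESeq2 called Cebpd and Timp1, a metalloproteinase inhibitor with a log2 fold change of -0.59. The signalling and target lists both hold Socs3.

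On the IL-1 side, Il1rn, the gene of the IL-1 receptor antagonist, had the largest difference, at 24.4, 14.5 and 13.9 CPM in Thbs2KO replicates 1, 2 and 3, and 1.85, 6.13 and 2.35 CPM in WT replicates 1, 2 and 3. The groups were well apart. The log2 fold change was 2.35 (SE 0.486, 95% confidence interval 1.19 to 3.52), with an adjusted p of 0.09 in edgeR and 1.41e-05 in DESeq2. Without WT replicate 2 edgeR called it higher, with a log2 fold change of 3.08 and an adjusted p of 0.0356. The other single libraries left out gave log2 fold changes down to 2.04 (without Thbs2KO replicate 1) and edgeR adjusted p values of 0.0924 to 0.309. The agonists were hardly detected, with 0 reads of Il1a in any library and 1 read of Il1b in all. Il18 and Il18bp had log2 fold changes of 0.09 and -0.21, and 1 of the 3 tested ligands and antagonists was higher at an unadjusted p below 0.05, Il1rn. Of 14 tested receptors and adaptors edgeR, limma-voom and DESeq2 called 0 (1 higher and 0 lower at an unadjusted p below 0.05). Irak1, Irak4 and Map3k7, kinases of the IL-1 receptor pathway, had log2 fold changes of 0.30, -0.18 and 0.12.

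In the list of 8 further colony-stimulating factors and receptors 5 were tested, and edgeR called 0 (2 higher and 0 lower at an unadjusted p below 0.05). Csf2 and Csf3, the genes of GM-CSF and G-CSF, had 0.142 CPM or less in every library. Csf1r, the receptor of CSF-1, was at 1.22 to 1.84 CPM in Thbs2KO and 1.85 to 2.39 CPM in WT (log2 fold change -0.51). The receptor chains Csf2rb and Csf2rb2 had log2 fold changes of 1.40 and 2.09 (edgeR adjusted p = 0.175 and 0.23), and DESeq2 called Csf2rb2. Levels were low, with Csf2rb at 1.27 to 1.42 CPM in Thbs2KO and 0.251 to 0.689 CPM in WT. Csf2rb2 was at 1.71 to 4.89 CPM in Thbs2KO and 0.351 to 1.33 CPM in WT. The log2 fold change of Csf2rb2 was 1.51 without Thbs2KO replicate 3 and 2.99 without WT replicate 1. They are near-identical copies, so how the reads were divided between them is uncertain. In the prostanoid list of 23 genes 16 were tested and edgeR called 0 (4 lower and 0 higher with unadjusted p below 0.05). Slco2a1, a prostaglandin transporter, was at 47.6 to 78.4 CPM in Thbs2KO and 86.3 to 144.7 CPM in WT, a log2 fold change of -0.89 (adjusted p = 0.206 in edgeR, called by DESeq2). The exporter gene Abcc4 had a log2 fold change of -0.23 and the reductase gene Akr1b3 one of -0.24. Ptgir, the prostacyclin receptor gene, lay on the other side, at 25.2 to 27.8 CPM in Thbs2KO and 5.74 to 22.1 CPM in WT without overlap (log2 fold change 1.20, edgeR adjusted p = 0.386). It was called by edgeR without WT replicate 1 (2.89% of all genes called) and without both WT replicate 1 and Thbs2KO replicate 3 (11.2% called). Ptges, the inducible prostaglandin E synthase that acts after cyclooxygenase-2, overlapped between genotypes, at 27.6 to 31.9 CPM in Thbs2KO and 24.5 to 49.7 CPM in WT.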

How the data were processed

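RNA-seq was done on cultured CAFs, 3 libraries from Thbs2KO and 3 from WT hosts, prepared with a kit that does not mark strand. The authors deposited expected counts per gene, unscaled. The tools listed per the submitters' processing notes are RSEM, STAR 2.7.3a and Trimmomatic 0.39, and the build is mm10; no source used here gives the annotation release. Reads that match several genes are divided among them by RSEM. Counts were rounded, since 3.8% to 3.88% of values per library were not whole, and 13590 of 55401 genes passed filterByExpr.

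The main test was the edgeR 4.0.16 quasi-likelihood test (robust, TMM, genotype only) in R 4.3.3, with Benjamini-Hochberg adjustment over all tested genes. Standard errors come from its F statistic. No exon base of a member is shared with another gene in GENCODE M21. The test was checked on simulated data with known changes, 50 genes for each fold. It called 11 at 1.5-fold, 37 at 2-fold, 49 at 4-fold and 48 at 8-fold, and 12 unchanged genes. Many changes of 2-fold or less would thus be missed. The changed genes were drawn from those with a mean of at least 5 CPM. Il6, Il11 and Il33 had lower means (1.81, 3.49 and 1.70 CPM over the 6 libraries), so these rates do not carry over to them. The simulated libraries also varied independently, while the real ones were unevenly alike.

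The 10 members and the lists were chosen with earlier results of these data known. Named genes are the members and, of each list, the called genes or else those of smallest p up to 3. For each ligand the 3 tested genes of most like pattern (mean of at least 5 CPM) are named too. Lifr, Il11ra1, Stat3, Ptges, Ptgir, Pdgfra, Dcn, Lum, Col3a1, Postn, Myh11, Lmod1, Cspg4, Des, Abcc9 and genes at or near 0 were added after their values were seen. One gene that the rule names is not reported here. Alternatives were DESeq2 1.42.0, limma-voom (limma 3.58.1), scaling by RLE or upper quartile, other filters, no robust estimation, a replicate block and libraries left out or summed. Figures used matplotlib 3.10.9.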

Additional observations from a re-analysis of the deposited data

How the results depend on the processing

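Under 16 alternatives, the 10 members gave 160 log2 fold changes. Of these, 149 kept their direction and stayed on the same side of an adjusted p of 0.05 by the method used. Il6, Lif, Il11, Csf1, Ptgs2, Osmr and Il1rl1 were negative under every one. DESeq2 called Il11, Csf1 and Ptgs2 (log2 fold changes -1.18, -0.53 and -0.84), 8 companion genes and 680 genes, 314 higher and 366 lower. Leaving out WT replicate 1 together with Thbs2KO replicate 3, edgeR called 2 members, Il11 (-1.20) and Ptgs2 (-0.72), 13 companion genes and 1519 genes, 651 higher and 868 lower, while Il6st (-0.078), Il33 (-0.44) and Il1r1 (0.35) changed sign. With 1 library left out, Il6st ranged from -0.021 to 0.27, Il33 from -0.21 to 1.36, Il1rl1 from -1.05 to -0.15 and Il1r1 from -0.33 to 0.30; Il18 from -0.045 to 0.42, Il18bp from -0.79 to 0.28, Spon1 from -0.50 to 0.59 and Serpina3n from -0.72 to 0.13. Genes called then ranged from 38 to 397 (25 to 146 higher, 13 to 251 lower), companions from 0 to 6, and 0 members were called each time. The lowest came without Thbs2KO replicate 1 and the highest without WT replicate 1. No low-count filter gave 245 genes (132 higher, 113 lower) and 2 companion genes. Summing Thbs2KO replicates 1 and 2 gave 40 (28 higher, 12 lower) and 0 companion genes. The cause of these changes was not tested. Same-numbered libraries did not deviate together (correlations of -0.292, 0.171 and -0.331 for replicates 1, 2 and 3), and not every library correlated best with its own number. With deviations taken from means of 3 libraries, these correlations cannot decide whether the numbers pair the samples. The labels do not say what the numbers mark. The replicate block gave 30 genes (20 higher, 10 lower), 0 companion genes and 0 members, and Thbs2 itself had an edgeR adjusted p of 0.0784 there. Reads limit Il6 and Il33, where 1 read is 0.0419 to 0.0489 CPM and single libraries held 8 and 9 reads.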

Other observations

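Within a library, the ratio of reads of 2 genes does not depend on the scaling between libraries. Of 5 such ratios computed between members, that of Lif to Il11 was 11.7, 13.5 and 11.5 in Thbs2KO replicates 1, 2 and 3, and 7.21, 7.73 and 6.42 in WT replicates 1, 2 and 3. The ratio of Lif to Il6 was 27.8, 17.0 and 54.5 in the Thbs2KO libraries and 16.3, 9.56 and 15.9 in the WT libraries. Neither ratio overlapped between genotypes, and each had a two-sided exact permutation p of 0.1, the smallest that 3 against 3 allows, and an adjusted p of 0.25 over the 5 ratios (exact permutation test with Benjamini-Hochberg adjustment). The reads of Il6st per read of Osmr, of Il1rl1 per read of Il1r1 and of Il1rl1 per read of Il33 overlapped between genotypes. The last of these ran from 50.9 to 168.8 in Thbs2KO and from 76.1 to 998.8 in WT, with the highest value in WT replicate 1.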
